A study of Mus musculus with 8 samples.

Results

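Perineuronal nets are lattices of extracellular matrix that wrap the soma and proximal dendrites of certain neurons, in the hippocampus mainly parvalbumin interneurons and CA2 pyramidal neurons. Their backbone is hyaluronan, to which the lecticans, a family of chondroitin sulfate proteoglycans, attach through link proteins, while tenascin-R joins lecticans to each other at the opposite end. The same molecules also form the looser matrix around synapses and at nodes of Ranvier, and nets form during postnatal life as circuits mature. Genes were chosen by symbol as the 4 lecticans (Acan, Bcan, Ncan, Vcan), 3 link proteins (Hapln1, Hapln2, Hapln4) and tenascin-R (Tnr), and all 8 were found among the 20802 genes of the deposited table.

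Hippocampal RNA was sequenced from 8 male C57BL/6 mice to ask which transcripts differed after repeated ketamine anesthesia. The 4 mice of the Anesthesia group received ketamine (35 mg per kg, i.p.) once a day for 5 days from PND16, and the 4 mice of the Control group received normal saline on the same schedule, although the sample titles call them untreated. Tissue was taken 1 week after the last injection, at an age labelled P28. Whole hippocampus holds many cell types, so fewer cells of a type and less RNA per cell cannot be told apart in these values. Values are normalized counts, which the authors obtained by dividing the counts of each mouse by a size factor, and the step between low values places the depth at approximately 17.8 to 20.8 M reads per Anesthesia mouse and 15.4 to 22.2 M reads per Control mouse.

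Hippocampal marker genes were present in every library. Zbtb20, a transcription factor of hippocampal neurons, ranged from 8925 to 21212 normalized counts, and Fibcd1, a gene of CA1 pyramidal neurons, from 1291 to 2412. Anesthesia mouse 3 was the lowest of the 8 mice for both genes. The libraries differed more in tissue next to the hippocampus. Ttr (transthyretin), the choroid plexus marker with the most counts, had 53003, 393, 182 and 2679 normalized counts in Anesthesia mice 1 to 4, and 145, 24368, 61582 and 61503 in Control mice 1 to 4. Libraries above 10000 are called choroid plexus-rich here, a limit set after the values were seen, and they were 1 of 4 in the Anesthesia group (mouse 1) and 3 of 4 in the Control group (mice 2, 3 and 4). In marker lists, the gene with the most counts has the highest mean normalized count without division by length, which gives no order of levels between genes. The summed level of all 8 choroid plexus markers was 56929.5, 953, 452 and 3409 in Anesthesia mice 1 to 4, and 551, 26442, 66284 and 66010.0 in Control mice 1 to 4. Kcne2 was the marker of that list that was listed at 0 in a library, Control mouse 1. The part of this difference in the results was not tested other than by the fits without these libraries or with these markers as a covariate.

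Across all genes, the groups were compared with limma on log2(value + 1), and a fold change is Anesthesia against Control on that scale. All 8 genes were in the comparison. At an adjusted p under 0.05, 0 of the 8 were called, and the background was 0 of 18865 genes tested (0%). At an unadjusted p under 0.05, 2 of the 8, Ncan and Hapln4, were higher in the Anesthesia group and 0 were lower. That count was 1 (Ncan) with the choroid plexus markers as a covariate and in 5 of 8 fits that left out a mouse. It was 3 with the mature oligodendrocyte markers as a covariate and with a replicate block, and both added Hapln1, lower. With GC content and length correction and the block it was 2, Hapln4 and, lower, Hapln1. In the choroid plexus-rich libraries alone the log2 fold change was 0.062 for Ncan and 0.057 for Hapln4, and in the poor ones 0.351 and 0.477. The background of that count moved too, from 1513 of all genes to 907 with the choroid plexus covariate and 1400 with the oligodendrocyte covariate. It was 1084 with the block, 948 with that correction and the block, and 1061 to 2024 with a mouse left out. Of all genes tested, 8.02% had such a p, 4.75% higher and 3.27% lower. No gene of the 8 had groups without overlap, which 5.04% of all genes had. The median log2 fold change of the 8 was 0.047, with 6 higher and 2 lower, and that of all genes was -0.004. When the libraries were fitted for GC content and length, the median of the 8 turned to -0.028, with 3 higher and 5 lower.

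**Figure D1:**
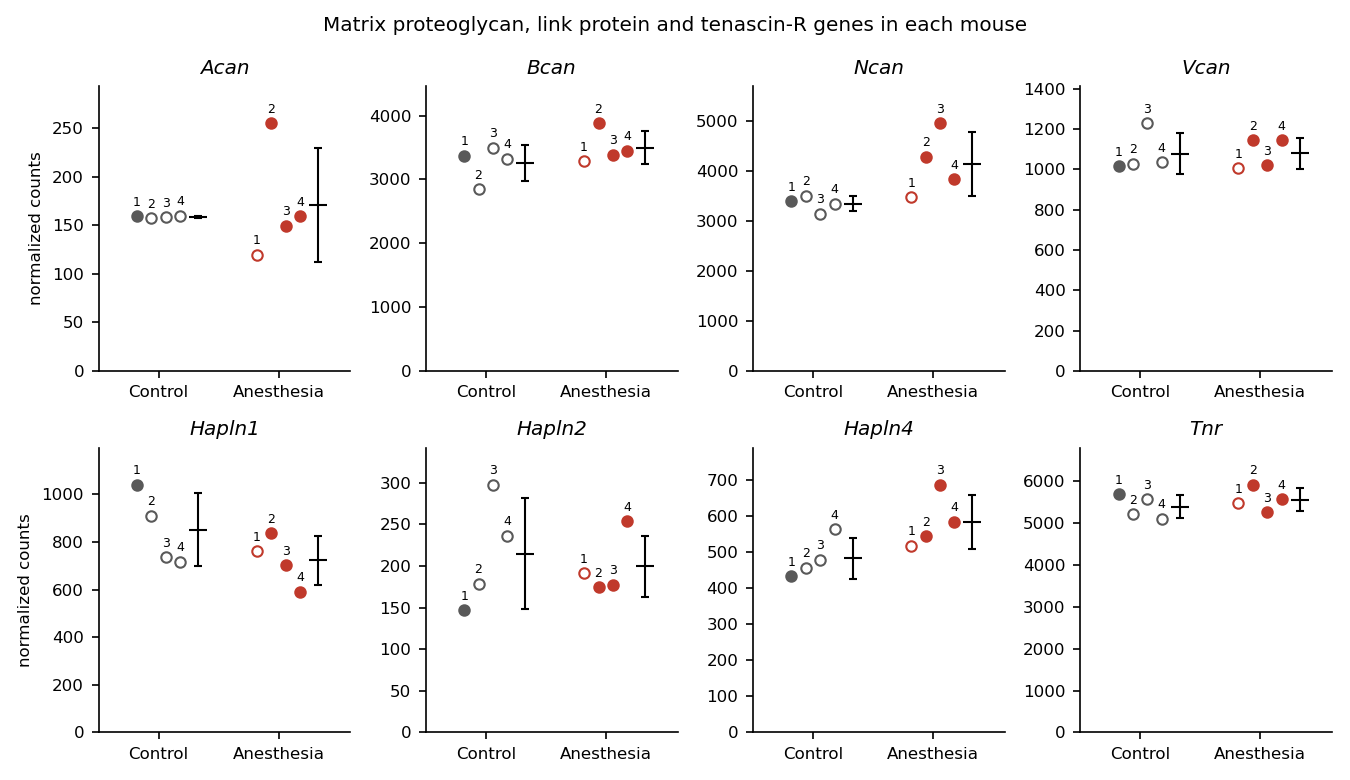
Normalized counts (y axes, from 0) of the 8 genes in each mouse of the Control group (grey) and the Anesthesia group (red), with the mouse number above each point, open points for choroid plexus-rich libraries and bars for the mean ± SD of each group (n = 4). Ncan is highest in Anesthesia mouse 3 (4959.9), Acan in Anesthesia mouse 2 (255), and the 4 Control mice are within 157 to 159.6 for Acan.

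Neurocan (Ncan, ENSMUSG00000002341, chromosome 8, 70093085 to 70120873, minus strand, GRCm38), a lectican of the developing and juvenile brain, showed the largest difference of the 8 genes. It had 3477, 4288, 4959.9 and 3834 normalized counts in Anesthesia mice 1 to 4, and 3399, 3507, 3149.8 and 3347 in Control mice 1 to 4. The Control mice lay close together, Anesthesia mouse 3 was highest, and the groups overlapped at a single point, since Anesthesia mouse 1 lay below Control mouse 2. Means were 4139.7 ± 639.6 after anesthesia against 3351 ± 149.5 (SD, n = 4 each). The log2 fold change was 0.29 (standard error 0.10, 95% confidence interval 0.08 to 0.51, limma adjusted p = 0.62), so Ncan was not past the threshold. Among all genes tested it ranked 354 by p. Anesthesia mouse 1, the lowest of its group, is also its only choroid plexus-rich library. In a fit of the choroid plexus-poor libraries alone (Anesthesia mice 2, 3 and 4 against Control mouse 1) the log2 fold change was 0.35, and in the choroid plexus-rich libraries alone (Anesthesia mouse 1 against Control mice 2, 3 and 4) it was 0.06. Both fits were chosen after seeing the data and assume that the lone mouse varies like the other group. With the choroid plexus markers as a covariate it was 0.21.

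Brevican (Bcan, ENSMUSG00000004892, chromosome 3, 87987531 to 88000230, minus strand), the lectican of mature perisynaptic matrix, differed less. Its values were 3282, 3882, 3390.0 and 3447 normalized counts in Anesthesia mice 1 to 4 and 3374, 2845, 3500.5 and 3324 in Control mice 1 to 4. Anesthesia mouse 2 was highest and Control mouse 2 lowest, and the other 6 mice were mixed. This gave a log2 fold change of 0.10 (standard error 0.08, interval -0.07 to 0.28, limma adjusted p = 0.73).

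Aggrecan (Acan, ENSMUSG00000030607, chromosome 7, 79053483 to 79115099, plus strand) is the lectican most used to define nets. It had 119.5, 255, 149 and 159 normalized counts in Anesthesia mice 1 to 4, against 159, 157, 158 and 159.6 in Control mice 1 to 4. All Control mice were nearly equal, while the Anesthesia group held both the lowest mouse of the 8 (mouse 1) and the highest (mouse 2). The group means were 171 ± 58.6 and 159 ± 1.25 (SD, n = 4 each), and the log2 fold change was 0.05 (standard error 0.20, interval -0.38 to 0.48, limma adjusted p = 0.951). Without Anesthesia mouse 2 it turned to -0.16, and with the choroid plexus markers as a covariate to -0.039. In the choroid plexus-rich libraries alone it was -0.402, and in the poor ones 0.194. Counting of reads alone gives an SD of approximately 12.6 at that Control mean, above the SD among the Control mice, so their near-equality is not read as a property of the group, and spread was not tested.

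Versican (Vcan, ENSMUSG00000021614, chromosome 13, 89655312 to 89742509, minus strand), made by oligodendrocyte precursors and found at nodes of Ranvier, had 1007, 1146, 1020.1 and 1145 normalized counts in Anesthesia mice 1 to 4. In Control mice 1 to 4 it had 1017, 1028, 1229.5 and 1037. Control mouse 3 was the highest of the 8, the other Control mice lay close together, and Anesthesia mice 2 and 4 lay above those 3 while Anesthesia mice 1 and 3 lay near them. Between the groups the log2 fold change was 0.004 (standard error 0.08, interval -0.18 to 0.18, limma adjusted p = 0.991).

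Link proteins fasten lecticans to hyaluronan, and the 3 genes did not point one way. Hapln4 (ENSMUSG00000007594, chromosome 8, 70083457 to 70090862, plus strand), a brain link protein of nets, had 518, 544, 688 and 585 normalized counts in Anesthesia mice 1 to 4. It had 433, 457, 479.9 and 563 in Control mice 1 to 4. Anesthesia mouse 3 was again the highest, and Control mouse 4 was the 1 Control mouse that reached into the Anesthesia range. Means were 584 ± 74.5 against 483 ± 56.7 (SD, n = 4 each), for a log2 fold change of 0.27 (standard error 0.11, interval 0.03 to 0.51, limma adjusted p = 0.62). Anesthesia mouse 3, the highest for Ncan and Hapln4, had the lowest summed level of the hippocampal neuron markers (8 of 8 found, none at 0). Zbtb20 had the most counts, which dominate the sum. In that mouse Wfs1 (994 normalized counts) and Neurod2 (1060) were not the lowest of the 8 mice, while the other markers of the list were. The sum was 21671, 31732, 15103 and 23372 normalized counts in Anesthesia mice 1 to 4 and 27041, 21395, 24041 and 20656 in Control mice 1 to 4. The part of these markers in the differences of Ncan and Hapln4 was not tested. Without Anesthesia mouse 3 the log2 fold change was 0.20 for Ncan and 0.19 for Hapln4, the latter no longer at an unadjusted p under 0.05. In the choroid plexus-poor libraries alone the log2 fold change of Hapln4 was 0.48, and in the choroid plexus-rich libraries alone it was 0.057.

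Hapln1 (ENSMUSG00000021613, chromosome 13, 89539796 to 89611652, plus strand), the link protein of cartilage that also stabilises nets, went the other way. Its values were 762, 836, 703 and 591 normalized counts in Anesthesia mice 1 to 4 and 1041, 910.3, 736 and 717 in Control mice 1 to 4. Control mice 1 and 2 were above every Anesthesia mouse, but Control mice 3 and 4 lay within the Anesthesia range. The log2 fold change was -0.23 (standard error 0.14, interval -0.53 to 0.08, limma adjusted p = 0.677). Among the choroid plexus-poor libraries it was -0.57, where Control mouse 1 is the only Control mouse, and among the choroid plexus-rich libraries -0.04.

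Hapln2 (ENSMUSG00000004894, chromosome 3, 88021750 to 88027583, minus strand) encodes the link protein of nodes of Ranvier and is made by oligodendrocytes. It had 191, 175, 178 and 254 normalized counts in Anesthesia mice 1 to 4 and 147, 179, 298 and 236 in Control mice 1 to 4. The 3 highest mice were Control mouse 3, Anesthesia mouse 4 and Control mouse 4, so both groups held high and low mice. The log2 fold change was -0.07 (standard error 0.21, interval -0.54 to 0.39, limma adjusted p = 0.938). It turned to 0.095 with the choroid plexus markers as a covariate and to 0.439 in the choroid plexus-poor libraries alone. In the choroid plexus-rich libraries alone it was -0.28. Mature oligodendrocyte markers were high in the 3 mice with the highest Hapln2. Their summed level, 12 of 12 genes found, was 128463, 132727, 117880.0 and 201939 normalized counts in Anesthesia mice 1 to 4. In Control mice 1 to 4 it was 105896, 134812, 191756 and 174551, with Mbp (myelin basic protein) the gene with the most counts and no marker at 0 in any mouse. Over the 8 mice the Pearson r of Hapln2 with the mean of these markers was 0.95, given as a description, and 0.94 without Control mouse 3 and Anesthesia mouse 4. With these markers as a covariate the log2 fold change of Hapln2 was -0.01. Hapln1 ran against them, with r of -0.70 (-0.24 without Control mouse 1 and Anesthesia mouse 4), and with the covariate its log2 fold change was -0.27, at an unadjusted p under 0.05. With the 7 oligodendrocyte precursor markers r was 0.91 for Hapln2, and 0.75 without Control mouse 3 and Anesthesia mouse 4. It was -0.70 for Hapln1, and -0.60 without Control mouse 1 and Anesthesia mouse 4. The summed level of the precursor markers was 5081, 4683, 4928 and 5693 normalized counts in Anesthesia mice 1 to 4 and 4792, 4913, 5598 and 5508 in Control mice 1 to 4, with Pdgfra the gene with the most counts and none at 0. The part of either list in the difference of Hapln1 was not tested beyond that covariate.

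Tenascin-R (Tnr, ENSMUSG00000015829, chromosome 1, 159523769 to 159931729, plus strand), the crosslinker of lecticans, had the narrowest interval of the 8. It had 5475, 5918, 5258 and 5568 normalized counts in Anesthesia mice 1 to 4, and 5689, 5211, 5567 and 5102 in Control mice 1 to 4. High and low mice occurred in both groups. Its log2 fold change was 0.04 (standard error 0.06, limma adjusted p = 0.842), and its interval of -0.08 to 0.17 corresponds to 0.94-fold to 1.13-fold.

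Levels of the 8 genes were compared with each other as normalized counts per kb of the longest protein-coding transcript. On that scale Bcan was highest with 1076 ± 90.9 per kb (SD, n = 8), followed by Ncan (521 ± 83.7) and Tnr (449 ± 22.2), then Hapln4 (146 ± 22.3), Hapln1 (138 ± 24.4), Hapln2 (121 ± 29.6), Vcan (86.8 ± 6.69) and Acan (22.4 ± 5.29). The ranges over the 8 mice did not overlap between Bcan and Ncan, between Tnr and Hapln4, or between Vcan and Acan, and they did overlap between all other neighbours in that order. The order of Hapln4 and Hapln1 turned by group, with means of 160 and 126 per kb in the Anesthesia group and 132 and 149 in the Control group. Vcan has 8 protein-coding transcripts in the annotation and Tnr has 4, of very different lengths. With the median length in place of the longest, the level of Tnr was 2081 per kb, that of Bcan 1919.7, overlapping with Tnr, and that of Vcan 469.6. Acan was the lowest of the 8 on both scales.

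The make-up of the lectican family within each mouse does not depend on the scaling between libraries. Of the lectican total per kb of the longest transcript, Ncan made up 29.7%, 30.4%, 36.8% and 30.5% in Anesthesia mice 1 to 4 and 28.6%, 32.6%, 26.2% and 28.6% in Control mice 1 to 4. Anesthesia mouse 3 stood above the others, and the remaining Anesthesia mice lay within the Control range. Bcan made up 62.0% ± 2.94 after anesthesia against 64.3% ± 2.64 (SD, n = 4 each). The share of Vcan was 4.84% ± 0.382 against 5.38% ± 0.428, and that of Acan 1.27% ± 0.345 against 1.34% ± 0.0604 (SD, n = 4 each). In two-sided exact permutation tests over the mice, the difference in share was 2.91 percentage points for Ncan (p = 0.286), -2.30 for Bcan (p = 0.343), -0.54 for Vcan (p = 0.143) and -0.065 for Acan (p = 0.8). Without Anesthesia mouse 3 the differences were 1.26 points for Ncan and -0.864 for Bcan. In the choroid plexus-rich libraries alone the difference for Ncan was 0.634 points, and in the poor ones 3.97. Without Anesthesia mouse 2, the highest for Acan, that of Acan was -0.23 points (exact p = 0.0286, not adjusted, 1 of 8 such fits). The shares depend on the length used, and over all mice Ncan made up 30.4% with the longest transcript, 17.7% with the median length and 44.6% with no division, and Vcan 5.11%, 16.0% and 13.0%. Differences kept their direction, at 2.13 and 3.66 points for Ncan, -0.799 and -2.01 for Bcan, -1.31 and -1.53 for Vcan and -0.029 and -0.12 for Acan with the median length and with no division. After Benjamini-Hochberg adjustment over the 4 shares the lowest exact p was 0.457, where the smallest unadjusted p that 4 mice against 4 allow is 0.0286.

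**Figure D2:**
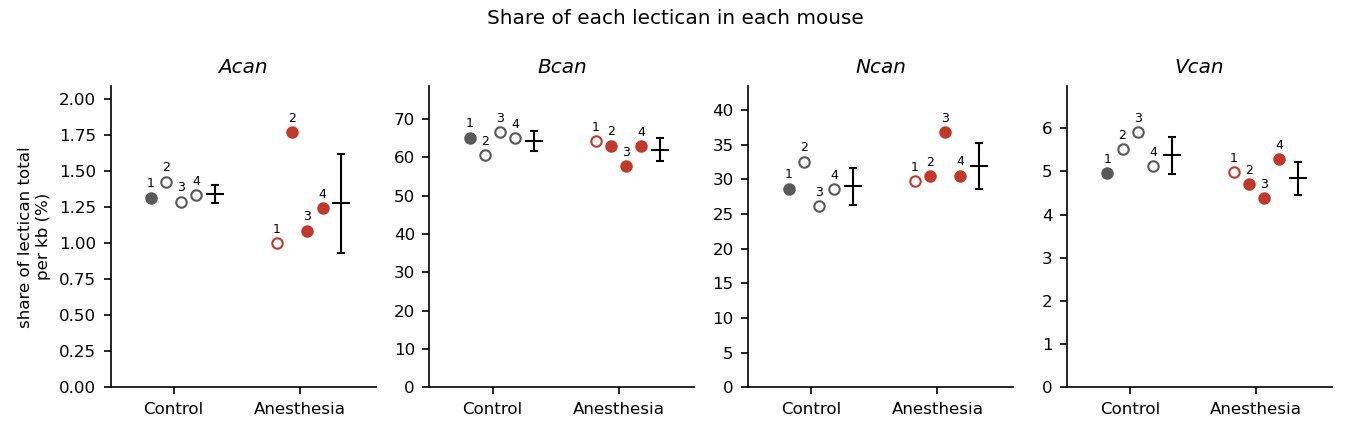
Share of each lectican in the lectican total (y axes, percent of normalized counts per kb of the longest protein-coding transcript, from 0) in each mouse of the Control group (grey) and the Anesthesia group (red), with open points for choroid plexus-rich libraries and bars for the mean ± SD (n = 4). For Ncan, Anesthesia mouse 3 (36.8%) lies apart, and the groups overlap in all 4 panels.

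A feature not used in choosing the genes is that each lectican has a link protein gene next to it in the genome. Ncan and Hapln4 lie on chromosome 8 with 2222 bases between them and their 3′ ends facing each other. Bcan and Hapln2 lie on chromosome 3, 21519 bases apart on the same strand. Vcan and Hapln1 lie on chromosome 13 with 43659 bases between their 3′ ends, and Acan lies on chromosome 7 with 2 bases to the 3′ end of Hapln3, a link protein gene outside the 8. No other gene of the deposited table lies between the members of a pair. Pearson's r over the 8 mice, as a description, was 0.77 for Ncan and Hapln4 (Spearman's rho 0.55). It was 0.13 for Bcan and Hapln2 (rho 0.071), -0.37 for Vcan and Hapln1 (rho -0.29) and -0.70 for Acan and Hapln3 (rho -0.76). Of the 28 pairs among the 8 genes, the r of 0.77 for Ncan and Hapln4 was the highest. That of -0.73 for Hapln1 and Hapln4 was the lowest (rho -0.88). By rho, Bcan and Vcan (0.71) and Bcan and Tnr (0.69) were above Ncan and Hapln4 (0.55). Anesthesia mouse 3 was the highest for both Ncan and Hapln4, and r without that mouse was not computed. The exons of an antisense gene, Gm38039, overlap exons of Tnr in the annotation, and use of strand in the counting is not given in the sources used here. The study's methods and the sample labels differ on the library kit, a stranded total RNA kit in the methods and TruSeq RNA Sample Prep v2 in the labels.

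Of the 8 genes, 7 had a promoter sequence in the RefSeq table (GRCm38.p6), and Hapln4 is named only. The 250 bases before the start were searched on both strands for the GC box GGGCGG, which 32.7% of all 32851 promoters in the table hold, and for TATAA, which 22.8% hold. A GC box was present for 4 of the 7 (Acan, Bcan, Ncan and Vcan, all lecticans) and TATAA for 1 (Ncan). Those of Ncan (chr8:70120845-70121094, minus strand) and Hapln1 (chr13:89540386-89540635, plus strand) are shown because these genes had the largest difference in each direction, 5′ to 3′ with both motifs in capitals. In Ncan, TATAA and its reverse complement overlap within TTATAA, and Hapln1 has no match. Starts are those of RefSeq, which for both genes lie inside the gene as GENCODE places it.
Ncan: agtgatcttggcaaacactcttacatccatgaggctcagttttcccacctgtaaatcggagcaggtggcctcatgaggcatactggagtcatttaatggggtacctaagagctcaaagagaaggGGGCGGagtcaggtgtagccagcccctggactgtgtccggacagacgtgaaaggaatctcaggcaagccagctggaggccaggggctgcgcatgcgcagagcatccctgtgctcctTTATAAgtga
Hapln1: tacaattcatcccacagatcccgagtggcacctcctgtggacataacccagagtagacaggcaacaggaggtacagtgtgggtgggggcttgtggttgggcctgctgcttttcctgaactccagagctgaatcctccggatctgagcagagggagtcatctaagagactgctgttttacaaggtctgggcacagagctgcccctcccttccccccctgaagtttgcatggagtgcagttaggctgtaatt

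Around the 8 genes, 57 further genes of the matrix were listed by role, of which 55 were in the deposited table and 54 were tested. Of these 54, 4 were higher and 1 was lower at an unadjusted p under 0.05, which is 9.26% of the list beside the 8.02% of all genes. Groups did not overlap in 4 of them (3 higher, 1 lower), which is 7.41% beside 5.04%, and with all columns scaled to the same total this held for 1, Fam20b. None had an adjusted p under 0.05 in limma. The median log2 fold change was 0.026 for the list and -0.004 for all genes.

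Among 12 genes that build chondroitin chains, 7 were higher and 5 lower. Chpf2, a chondroitin polymerising factor that takes part in chain elongation, had 2015, 1605, 1888 and 1851 normalized counts in Anesthesia mice 1 to 4, against 1434, 1331, 1593 and 1402 in Control mice 1 to 4. All Anesthesia mice were above all Control mice, by a narrow margin between Anesthesia mouse 2 and Control mouse 3. Its log2 fold change was 0.35 (standard error 0.08, interval 0.17 to 0.53, limma adjusted p = 0.565), and it ranked 39 among all genes tested. With total scaling the groups of Chpf2 overlapped. Fam20b, the kinase that phosphorylates the xylose of the linker between chain and core protein, ranged from 1971 to 2126 normalized counts over the Anesthesia mice and from 2171 to 2288 over the Control mice. It was lower in every Anesthesia mouse, at a log2 fold change of -0.11 (standard error 0.05, limma adjusted p = 0.627).

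Sulfation and epimerisation genes, which set the pattern of charges on the chains, showed no call. Of 10 listed genes 9 were found, 4 higher and 5 lower, and the smallest p belonged to Dsel, a dermatan sulfate epimerase-like gene, at a log2 fold change of -0.10 (standard error 0.09, limma adjusted p = 0.755). The 8 genes of hyaluronan synthesis and turnover were split 4 to 4, and Hyal2, a hyaluronidase, had the smallest p with 73 to 136 normalized counts over the Anesthesia mice and 124 to 165 over the Control mice (log2 fold change -0.35, standard error 0.19, limma adjusted p = 0.66). All 5 of the other proteoglycan, link and tenascin genes were higher in the Anesthesia group, without a call at an unadjusted p under 0.05. The smallest p among them was that of Cspg5 (neuroglycan C), with 2775, 2485, 3457 and 2549 normalized counts in Anesthesia mice 1 to 4 and 2320.4 to 2576 in the Control group. As for Ncan, Anesthesia mouse 3 was the highest, and the log2 fold change was 0.19 (standard error 0.10, limma adjusted p = 0.639).

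Matrix proteases and their inhibitors were represented by 9 and 3 tested genes. Mmp14, a membrane-bound metalloprotease, had 150.2, 134, 142 and 182 normalized counts in Anesthesia mice 1 to 4, and 114, 104, 126 and 134 in Control mice 1 to 4. The groups touched without overlapping, at Anesthesia mouse 2 and Control mouse 4. The log2 fold change of Mmp14 was 0.34 (standard error 0.13, interval 0.04 to 0.64, limma adjusted p = 0.62), and its groups overlapped with total scaling. Timp3, an inhibitor of metalloproteases that is held in the matrix, had 1655, 1138, 1387 and 1169 normalized counts in Anesthesia mice 1 to 4 against 1508, 1471, 1750.2 and 1820.3 in Control mice 1 to 4. Anesthesia mouse 1, the choroid plexus-rich library of that group, lay within the Control range, and the other 3 lay below it. The log2 fold change of Timp3 was -0.30 (standard error 0.12, limma adjusted p = 0.62), and with the choroid plexus markers as a covariate it was -0.21, no longer at an unadjusted p under 0.05. The log2 fold change of Timp3 was -0.30 among the choroid plexus-poor libraries alone and -0.02 among the rich ones.

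Of 8 receptors or bound partners of the matrix, 4 were higher and 4 lower. Ptprs and Ptprf encode related receptor phosphatases that bind chondroitin sulfate proteoglycans. Ptprs had 9239, 8968, 10201 and 9180.2 normalized counts in Anesthesia mice 1 to 4 and 8629, 8883, 8663 and 8297 in Control mice 1 to 4. Its groups did not overlap, though they did with total scaling, and the log2 fold change was small, 0.12 (standard error 0.05, limma adjusted p = 0.622). When the libraries were fitted for GC content and length, it was 0.01. An unadjusted p under 0.05 for Ptprs was found in 5 of 13 other settings and in 1 of 8 fits with a mouse left out. Ptprf had 1534, 1119, 2038 and 1516 normalized counts in Anesthesia mice 1 to 4 and 1008, 1199.8, 1016 and 1280.1 in Control mice 1 to 4. Anesthesia mouse 3 was highest and Anesthesia mouse 2 lay within the Control range, at a log2 fold change of 0.44 (standard error 0.16, limma adjusted p = 0.62).

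**Figure D3:**
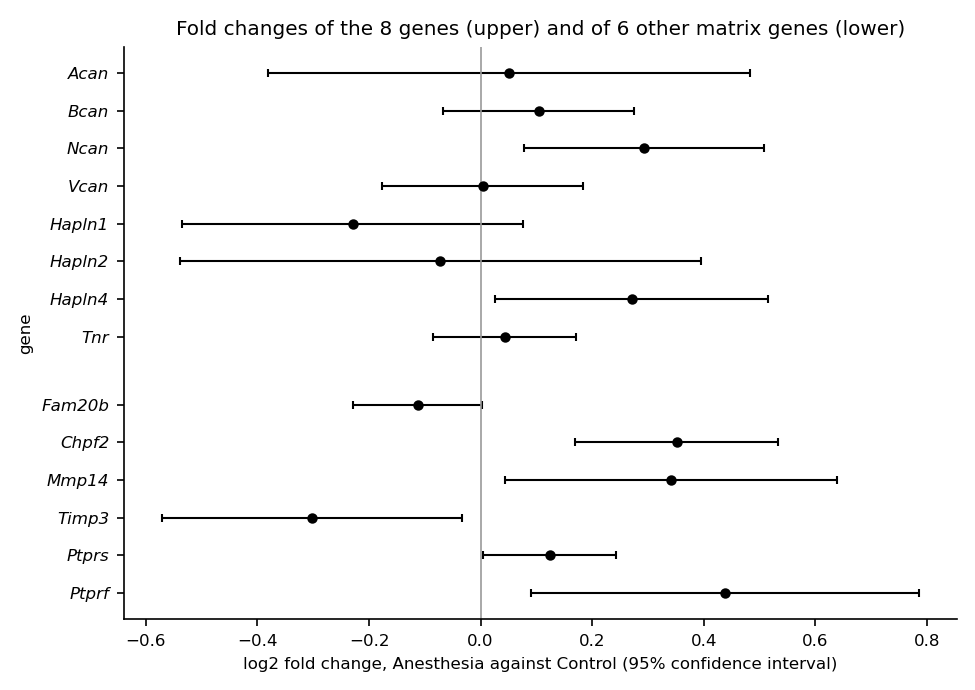
Log2 fold change, Anesthesia against Control (x axis, points, with 95% confidence intervals as bars), for the 8 genes (upper) and for the 6 genes of the wider matrix list with an unadjusted p under 0.05 or groups that do not overlap (lower). Intervals of Ncan and Hapln4 lie above 0, those of the other 6 upper genes include 0, and no gene had an adjusted p under 0.05 in limma.

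Markers of the cells that carry nets did not differ by a common sign. Of 9 genes listed for parvalbumin interneurons, not all of them particular to these cells, 3 were higher and 6 lower. Pvalb itself had 399 ± 31.5 normalized counts after anesthesia against 410 ± 42.8 (SD, n = 4 each; log2 fold change -0.04, limma adjusted p = 0.924). Gad1, an enzyme of GABA synthesis and the gene with the most counts, had 4417 ± 293 normalized counts after anesthesia against 4879 ± 233 (SD, n = 4 each; log2 fold change -0.14, limma adjusted p = 0.622). Kcnc1, a potassium channel of fast-spiking neurons, had 1469 ± 220.0 against 1208 ± 133 (SD, n = 4 each; log2 fold change 0.28, limma adjusted p = 0.62). Of 5 CA2 markers 1 was higher and 4 lower, with Rgs14 the gene with the most counts. Amigo2 had the smallest p of these 5, with 279 to 586 normalized counts over the Anesthesia mice and 528 to 641 over the Control mice (log2 fold change -0.44, limma adjusted p = 0.622). Anesthesia mouse 3 was the lowest mouse for Rgs14 and Amigo2, but not for the other CA2 markers. It had 998 normalized counts for Pcp4, 200 for Cacng5 and 791 for Necab2, where the lowest mice had 708, 128 and 758.

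Over the 8 mice, nuclear-retained RNAs ran with Ncan and Hapln4, the genes with the lowest p of the 8, but not within the Control group. Of the 6 on that list 5 were higher in the Anesthesia group, 3 of them at an unadjusted p under 0.05, and the median log2 fold change was 0.22. Those 3 are 50% of the list, beside 4.75% of all genes tested that were higher at that p. The list was chosen with earlier results of these data known, so these shares are not read as a test. The summed level was 342839, 395971, 357159 and 383919 normalized counts in Anesthesia mice 1 to 4 and 317764, 316692, 342471 and 323707 in Control mice 1 to 4, with Malat1 the gene with the most counts and no gene at 0. Miat had the smallest p of that list, with 9800.5 ± 1139.6 normalized counts against 7039.5 ± 612 (SD, n = 4 each; log2 fold change 0.47, limma adjusted p = 0.565). Pearson's r over the 8 mice with the mean of that list was 0.81 for Ncan and 0.81 for Hapln4, as a description of 104 such values between the 8 genes and 13 marker lists. Without the 2 mice farthest from the median of each gene these were 0.76 and 0.56. The list and both genes were higher in the Anesthesia group, which by itself raises an r over the 8 mice. Among the Control mice, mouse 3 had the highest mean of the list (-0.063) and the lowest Ncan. Control mouse 4 had the lowest mean of the list (-0.118) and the highest Hapln4 of that group. The part of these RNAs in the differences of Ncan and Hapln4 was not tested.

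Of 5 thalamus markers 3 were lower in the Anesthesia group, and r with Ncan was -0.86, the lowest of the 104 values, and -0.46 without Anesthesia mice 2 and 3. Their summed level was 1362, 1342, 1266 and 1603 normalized counts in Anesthesia mice 1 to 4 and 1332, 1442, 1756 and 1548 in Control mice 1 to 4. The gene with the most counts was Slc17a6, with 372 to 791 normalized counts over the 8 mice, and no gene was at 0. Slc17a6 was highest in Anesthesia mouse 3, which had the lowest sum of the list and the highest Ncan. Its log2 fold change was 0.01 and that of Synpo2 was 0.18, so the markers of this list did not run together. Tcf7l2 was lower in the Anesthesia group with 36.8 ± 1.82 against 56.3 ± 13.2 (SD, n = 4 each), where Control mice 2, 3 and 4 lay above the other 5 mice. These 3 are choroid plexus-rich, and so is Anesthesia mouse 1, which had the lowest Tcf7l2 of all (35.7). The part of these markers in the difference of Ncan was not tested.

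For Acan the highest r among the 13 lists was that with the astrocyte markers, 0.84 as a description, which rests on Anesthesia mice 1 and 2. Over the other 6 mice it was 0.13, while r was 0.95 with the hippocampal neuron markers (0.60 over all 8) and 0.82 with the thalamus markers (-0.02 over all 8). These values over 6 mice are not read as relations. Acan spans only 149 to 159.6 normalized counts there, less than the SD of approximately 12.6 from counting of reads alone. Anesthesia mouse 3 was also the lowest of the 6 for Acan and for the means of both lists (-0.495 for hippocampal neuron and -0.424 for thalamus markers). Of 10 astrocyte markers 4 were higher and 6 lower, and their summed level was 116514, 128049, 129736 and 122261 normalized counts in Anesthesia mice 1 to 4 and 115233, 114264, 115667 and 120529 in Control mice 1 to 4. Slc1a2, a glutamate transporter, had the most counts, which dominate that sum, and the smallest p (log2 fold change 0.17, limma adjusted p = 0.62), and no marker was at 0. The median log2 fold change of the list was -0.07, and the markers whose groups did not overlap, Slc1a3 (-0.10) and Gja1 (-0.11), were lower in the Anesthesia group. Their limma adjusted p was 0.622 and 0.627. Groups without overlap were 20% of that list, beside 5.04% of all genes tested. The relation of Acan to these markers was not tested.

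Genes most like each of the 8 over the mice were taken as the 3 with the highest Pearson r of log2(value + 1) among 12248 genes with a mean of at least 100, so that high values follow from the choice. For Ncan they were Gm42972 (r = 0.98), Mllt6 (0.98) and Brsk2 (0.98), and without the 2 mice farthest from the median, Anesthesia mice 2 and 3, r was 0.95, 0.89 and 0.99. Brsk2 put the 8 mice in the same order as Ncan (rho 1). For Hapln4 they were Gm44438 (0.98), Zfp7 (0.98) and Gm45191 (0.96), and for Hapln1 they included Nfyb (0.97) and Gfm1 (0.97). Hapln2 was most like Sox2ot (0.98), Ddr1 (0.98) and Frmd8 (0.98), and Tnr was most like Pabpn1 (0.98), Tmem108 (0.97) and Tbkbp1 (0.97). Vcan was most like Pag1 (0.96), Banp (0.95) and Plekhg3 (0.95), and Bcan most like A930004J17Rik (0.95), St6galnac4 (0.94) and Fam53b (0.93). Without Control mouse 2 and Anesthesia mouse 2 those for Bcan were 0.81, 0.62 and 0.85. For Acan they were Mfap3 (0.94), Abr (0.94) and Sec14l1 (0.94), but without Anesthesia mice 1 and 2 these were 0.28, 0.30 and 0.36, so the likeness rests on those mice.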

How the data were processed

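Hippocampal RNA of 8 mice was sequenced. The signal values are normalized counts, which the authors made with Salmon 1.1.0 and DESeq2 1.30.1 (R 3.5.3) by division by size factors, and deposited as 1 table of 20802 genes. All columns matched a sample. Reads per gene could not be recovered, since 45.9% to 68.3% of low values lay within 0.1 of a whole number after rescaling, so no count model was used. Here log2(value + 1) was tested with limma 3.58.1 (R 4.3.3, trended variance) in the 18865 genes whose mean reached 10 (1937 were left out), with Benjamini-Hochberg adjustment over all genes tested and a threshold of 0.05. Intervals are 95% intervals. Positions and lengths come from GENCODE M21 (GRCm38), and shares, correlations and exact permutation tests were computed in Python 3.11.15.

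The genes and lists were chosen with earlier results of these data known. Named are the 8 genes, and of the matrix list each gene with an unadjusted p under 0.05 or groups without overlap, or in a role with none the gene with the smallest p. Of each marker list the gene with the most counts and that with the smallest p are named, with the 3 genes most like each of the 8. Some genes that this rule takes are not reported here. Genes outside that rule are named where a sentence singles them out. Chst13 and Mmp3 of the matrix list were not analysed here, and Timp1 had a mean under 10. Alternatives were other scalings, filters, pseudocount and spread, correction for GC content and length, a replicate block, marker covariates, each mouse left out and subsets by choroid plexus content.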

Additional observations from a re-analysis of the deposited data

Results flagged for a closer look

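In groups of 4 mice, a mouse was marked when its distance from the nearest mouse took up most of the range of its group, by the Dixon outlier rule, which flags about 1 in 20 groups by chance. Of 36 groups examined, 2 held such a mouse. Vcan had 1229.5 normalized counts in Control mouse 3, where the other Control mice had 1017 to 1037. The share of Ncan in the lectican total was 36.8% in Anesthesia mouse 3, where the other Anesthesia mice had 29.7% to 30.5%.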

How the results depend on the processing

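No gene passed an adjusted p of 0.05 in limma in any of the 13 other settings, nor at 0.1 in the fit of the report, and leaving out 1 mouse gave 0 to 2 (2 without Control mouse 1, mt-Nd4l and Gm10222). Numbers do not pair the mice (correlations -0.242, -0.109, -0.182 and 0.019). With a replicate block the count was again 0, and 1084 genes had an unadjusted p under 0.05 against 1513, among them 3 of the 8 (Ncan, Hapln4 and, lower, Hapln1). Hapln1 also had such a p with the oligodendrocyte covariate, and in choroid plexus-poor libraries alone, where Ncan had not. Ncan had it in 10 of 13 settings and Hapln4 in 11, and with 1 mouse left out in 8 and 3 of 8. Ncan stayed higher in every setting (0.062 to 0.351, and 0.202 to 0.373 with 1 mouse left out), as did Hapln4 (0.057 to 0.477, and 0.189 to 0.347). Hapln1 stayed lower (-0.566 to -0.04, and -0.306 to -0.127), and Bcan higher (0.032 to 0.111, and 0.04 to 0.139).

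Directions turned in some settings for the median of the 8, for Acan, Vcan, Hapln2 and Tnr, and for the shares of Acan and Bcan. The median of the 8 was -0.028 with GC content and length correction, -0.001 without Anesthesia mouse 2 and -0.004 in choroid plexus-rich libraries alone. Among the matrix genes, groups without overlap went from 4 to 1 with total scaling. Acan was -0.027 with GC content and length correction, with or without the block, -0.039 with the choroid plexus covariate and -0.402 in choroid plexus-rich libraries alone (-0.16 to 0.202 with 1 mouse left out). Vcan was -0.004 with total scaling, -0.053 with that correction, with or without the block, and -0.119 in rich libraries alone (-0.025 to 0.069). Hapln2 was 0.095 with the covariate and 0.439 in poor libraries alone (-0.238 to 0.101). Tnr was -0.029 with that correction, with or without the block, and -0.029 in poor libraries alone. The difference in share was 0.052 points for Acan in poor libraries alone (-0.23 to 0.027) and 0.249 points for Bcan in rich libraries alone (-3.569 to -0.864 with 1 mouse left out). For Ncan it was 1.255 to 4.098 with 1 mouse left out. Of the matrix list, 3 genes had an unadjusted p under 0.05 with the covariate and 2 in poor libraries alone (Chst3 and Adamts1, neither among the 5 of the report), against 5 (4 to 8 with 1 mouse left out). Over all genes the counts were 907 and 643 against 1513. The subsets were chosen after seeing the data, their lone mouse is assumed to vary like the other group, and the cause was not tested.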

Other observations

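Marker lists not given above describe the tissue around the matrix genes, and no marker in them had an adjusted p under 0.05 in limma. Of 7 meningeal fibroblast markers 6 were lower in the Anesthesia group, 3 of them at an unadjusted p under 0.05, with a median log2 fold change of -0.62. Those 3 are 42.9% of the list, beside 3.27% of all genes tested that were lower at that p. This list too was chosen with earlier results known, and the shares are not read as a test. Lum, a matrix proteoglycan of fibroblasts, had 46.9 to 96.5 normalized counts over the Anesthesia mice and 89.3 to 129 over the Control mice (log2 fold change -0.82, limma adjusted p = 0.568). Dcn (decorin), the gene with the most counts in that list, ranged from 367 to 957 and from 665 to 1148 (log2 fold change -0.62, limma adjusted p = 0.622). All 8 choroid plexus markers were lower, with a median of -1.79, and Slc4a5 had the smallest p of them (log2 fold change -2.02, limma adjusted p = 0.667).

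Of 7 microglia markers 6 were higher. The groups did not overlap for P2ry12, a purinergic receptor of microglia (698 to 761 normalized counts against 557 to 688, limma adjusted p = 0.639). That is 14.3% of the list, beside 5.04% of all genes tested. Of 7 oligodendrocyte precursor markers 2 were higher and 5 lower, with Pdgfra the gene with the most counts (1850 ± 107 against 1953 ± 106, SD, n = 4 each) and Lhfpl3 at a log2 fold change of -0.21. Of 12 mature oligodendrocyte markers 2 were higher and 10 lower, and Mog had the smallest p (log2 fold change -0.16). Of 8 hippocampal neuron markers 2 were higher and 6 lower, with Fibcd1 at -0.25. Of 5 endothelial and mural cell markers 2 were higher and 3 lower, with Rgs5 the gene with the most counts (log2 fold change -0.06) and Cldn5 at 0.14. All 5 blood genes were lower, with Hbb-bs the gene with the most counts (log2 fold change -0.26) and Hba-a2 at -0.24.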
